A study of Homo sapiens with 12 samples.

Results

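The genes described here make, recycle or import the building blocks of coenzyme A (CoA): the vanins VNN1, VNN2 and VNN3, the pantothenate kinases PANK1, PANK2 and PANK3, the later synthesis enzymes PPCS, PPCDC and COASY, and the vitamin transporter SLC5A6. They were taken by gene symbol, and all 10 were among the 19677 genes listed in the count tables. Of these 10, 7 had enough reads to be tested, as did 12470 of all genes, and the 3 vanins did not. RNA was sequenced from CAOV3, an established line of human high-grade serous ovarian carcinoma, in 12 libraries that fall into 4 groups of 3. Control cells received DMSO, the drug solvent, and the ascites group received DMSO and 10% ascites, a fluid that builds up in the abdominal cavity of patients with this cancer. The bezafibrate group received 200 uM bezafibrate, a fibrate drug that activates the lipid-sensing PPAR receptors, and the combination group received 200 uM bezafibrate with 10% ascites. The labels give 16 h for the 3 treated groups and no time for the control, and they name DMSO only where no drug was given, so the drug and any difference in solvent cannot be told apart. All cells were grown in medium with fetal bovine serum, and the ascites fluid is not described further in the labels used here.

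CoA carries acyl groups through fatty acid oxidation, fatty acid synthesis and the citric acid cycle. Cells take up pantothenate (vitamin B5) through SLC5A6, phosphorylate it with a pantothenate kinase, the controlling step that CoA and its esters inhibit, and finish the molecule through PPCS, PPCDC and COASY. Vanins are pantetheinases that split pantetheine, a breakdown product of CoA, into pantothenate and cysteamine. In liver, Vnn1 and Pank1 are known as genes that respond to PPAR alpha ligands, and bezafibrate has been reported to raise PANK1 mRNA in hepatoma cells.

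Total counts per library ranged from 11831093 to 18762759. The first principal component of log2 expression, with 37.0% of the variance, set the 6 bezafibrate-treated libraries apart from the other 6. Combination replicate 3 stood apart on the second component, at -22.4 against -4.37 to 9.84 in the other 11 libraries. The PANK3 and PPCS calls that use this library, and the averaged drug difference of SLC5A6, which was not called, are therefore also given without it. The labels do not say that replicates were separate cultures, so the p-values measure only the spread between these libraries. Of 7 carcinoma epithelium markers, KRT8, KRT18 and KRT7 were abundant, whereas WT1 and MUC16 were at or near 0. EPCAM was detected at a far lower level than the keratins, with 1124 counts in control beside 122964 for KRT8. PAX8 was low, with 16 counts in control, 20 with ascites, 55 with bezafibrate and 31 with the combination. Of the 5 tested, 2 were called higher and 0 lower with the drug averaged over both media, beside 15% and 13.2% of all genes. KRT7 averaged 762.1 CPM (counts scaled to a common library size, after TMM normalization) in control and 803.4 with ascites. It averaged 1117.6 with bezafibrate and 1188.5 with the combination. Of 13 blood cell markers, 9 were at 0 in every library, PTPRC among them, and the summed level of the list was 2.63 to 5.26 CPM. The summed level of 3 mesothelium markers was 0.641 to 1.27 CPM without the drug and 1.21 to 2.46 with it. Of these, CALB2 was tested and not called, ITLN1 had 1 count in all, and UPK3B, not tested, had 7 counts in control, 6 with ascites, 23 with bezafibrate and 26 with the combination. Of 4 fibroblast markers, the 2 collagen genes were tested and both fell with the drug, from a summed list level of 9.99 to 11.5 CPM without it to 5.57 to 7.21 with it. DCN and PDGFRB were near 0, and the part of these markers in the results was not tested. Of 7 reference PPAR targets, PDK4 and CPT1A among them, 7 were called higher with the drug averaged over both media, beside 15% of all genes. Their median log2 fold change was 2.72. That list was written with earlier results of these data known, so the count is a description and not a test.

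Upstream sequences are shown for the genes that were called (PANK3 and PPCS), for PANK1, the kinase gene with a reported fibrate response, and for COASY, the window with the closest match to a PPAR element. RefSeq lists promoters for 8 of the 10 genes in build GRCh38.p14, with VNN1 and VNN3 missing, in 15 windows of 250 bases before a transcription start. Each sequence reads 5′ to 3′ on the gene's strand and ends at the base before the RefSeq start. By the gene models of GENCODE release 29 on GRCh38, every window shown lies wholly or mostly inside its gene, past the outermost start. Capitals mark the nuclear receptor motif AGGTCA in either orientation.
PANK3 (chr5:168579369-168579618, minus strand): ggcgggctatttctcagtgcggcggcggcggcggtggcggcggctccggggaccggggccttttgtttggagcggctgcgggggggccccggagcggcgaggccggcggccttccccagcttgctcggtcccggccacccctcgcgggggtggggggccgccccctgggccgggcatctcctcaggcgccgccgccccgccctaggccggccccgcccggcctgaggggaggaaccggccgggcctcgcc
PPCS, upstream start (chr1:42456091-42456340, plus strand): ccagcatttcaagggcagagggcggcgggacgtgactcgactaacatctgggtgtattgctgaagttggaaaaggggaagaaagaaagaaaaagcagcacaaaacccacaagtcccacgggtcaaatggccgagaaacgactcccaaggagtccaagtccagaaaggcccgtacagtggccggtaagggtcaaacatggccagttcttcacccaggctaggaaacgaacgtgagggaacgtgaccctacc
PPCS, downstream start (chr1:42456293-42456542, plus strand): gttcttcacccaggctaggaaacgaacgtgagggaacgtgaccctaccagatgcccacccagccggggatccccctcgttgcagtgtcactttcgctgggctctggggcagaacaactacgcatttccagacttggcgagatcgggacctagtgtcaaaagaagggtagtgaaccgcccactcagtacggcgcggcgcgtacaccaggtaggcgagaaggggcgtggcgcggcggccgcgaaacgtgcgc
PANK1, downstream start (chr10:89643917-89644166, minus strand): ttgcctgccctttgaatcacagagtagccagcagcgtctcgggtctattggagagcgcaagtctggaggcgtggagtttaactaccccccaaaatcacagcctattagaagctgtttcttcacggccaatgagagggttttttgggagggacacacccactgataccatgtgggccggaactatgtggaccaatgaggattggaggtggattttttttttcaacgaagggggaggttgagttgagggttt
PANK1, upstream start (chr10:89645243-89645492, minus strand): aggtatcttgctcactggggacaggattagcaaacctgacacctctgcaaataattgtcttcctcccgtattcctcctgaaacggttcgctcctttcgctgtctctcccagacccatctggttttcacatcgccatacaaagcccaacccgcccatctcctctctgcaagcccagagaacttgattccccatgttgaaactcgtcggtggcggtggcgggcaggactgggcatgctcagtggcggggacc
COASY (chr17:42561898-42562147, plus strand): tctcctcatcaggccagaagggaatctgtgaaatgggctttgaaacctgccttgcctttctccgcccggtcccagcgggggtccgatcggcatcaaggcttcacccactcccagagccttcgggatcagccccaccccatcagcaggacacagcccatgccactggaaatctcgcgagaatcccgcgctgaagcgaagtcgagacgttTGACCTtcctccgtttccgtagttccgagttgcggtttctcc

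No AGGTCA on either strand was found in the windows of PANK3, PPCS, PANK1, SLC5A6 or VNN2. One stood in COASY, beginning 42 bases before the start, and others stood at a PPCDC start and at PANK2 starts. In all, 4 of the 15 windows, of 3 genes, held the motif, and the PANK2 pair among them overlap and hold the same site. Of 35116 RefSeq windows of the same length, which also include overlapping starts, 12.1% held it. The PPAR response element is a pair of such motifs spaced by 1 base, searched as AGGTCANAGGTCA on both strands. None of the 15 windows held it exactly, beside 0.0171% of all windows, and 1 of them, in COASY, held it with up to 2 mismatches, beside 2.57% of all windows. These windows cover only the bases next to the start, and motif matches are given as a description of sequence.

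Bezafibrate raised PANK3 in both media, and it moved none of the other 5 tested genes apart from PPCS past the threshold. PPCS was called higher when ascites was present, but that call was lost in 8 of 13 alternatives. A difference between the media was not shown for PPCS. A gene was called when its adjusted p (edgeR's quasi-likelihood test, Benjamini-Hochberg over all 12470 genes tested) was under 0.05. Against control, bezafibrate called 1 of 7 genes, higher, where 17.6% of all genes tested were called (10.1% higher, 7.55% lower). With ascites in both arms, bezafibrate called 2 of 7, both higher, beside 17.8% of all genes (10.5% higher, 7.29% lower). Averaged over both media, 6 libraries against 6, it called 2 of 7, both higher, beside 28.3% of all genes (15% higher, 13.2% lower). These shares lie near the background of a drug that moves many genes, and the median log2 fold change of the 7 genes was 0.00 in the average, as was that of all genes tested.

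PANK3 encodes a pantothenate kinase found mainly in the cytosol. Its level was 160.7, 171.2 and 152.7 CPM in the 3 control libraries. It was 155.4, 155.0 and 157.8 with ascites, 186.0, 186.8 and 186.0 with bezafibrate, and 171.8, 176.6 and 187.9 with the combination. Every library with the drug lay above every library without it, and the lowest of them, combination replicate 1, was close to control replicate 2. The group means were 161.5 ± 9.27 CPM in control, 156.1 ± 1.47 with ascites, 186.2 ± 0.454 with bezafibrate and 178.8 ± 8.28 with the combination (SD, n = 3).

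The log2 fold change of PANK3 was 0.20 (SE 0.0384) for bezafibrate against control, a rise of 15.3% with a 95% interval of 9.2% to 21.7% (edgeR adjusted p = 8.87e-05). It was 0.19 (SE 0.0393), a rise of 14.3%, for the combination against ascites (edgeR adjusted p = 0.000276), a contrast that shares no library with the first. Without combination replicate 3 the second was 0.16 (edgeR adjusted p = 0.0013). Averaged over both media the rise was 14.8% (10.5% to 19.3%), with all 6 libraries with the drug above the mean of their matched group (edgeR adjusted p = 2.53e-07), and without combination replicate 3 the log2 fold change was 0.18 (edgeR adjusted p = 1.4e-08). The drug effect did not differ detectably between media: the interaction was -0.01 on the log2 scale, with an interval of -0.12 to 0.10. As for size, 78.3% of genes tested had a smaller absolute change than PANK3 in the averaged drug contrast, and the median absolute change of all genes was 0.08.

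PPCS encodes the synthetase that joins cysteine to phosphopantothenate. It stood at 21.5, 19.8 and 20.6 CPM in control, 21.7, 18.8 and 20.9 with ascites, 22.1, 20 and 22.7 with bezafibrate, and 22.4, 24.7 and 25.4 with the combination. All 3 combination libraries lay above all control and ascites libraries, whereas the bezafibrate libraries overlapped both. The rise with the drug in ascites was 17.1% (4.78% to 30.8%), or 0.23 ± 0.0788 (SE) on the log2 scale (edgeR adjusted p = 0.0403). Against control without ascites the drug effect was 0.06 (edgeR adjusted p = 0.688), and averaged over both media it was 0.14 (edgeR adjusted p = 0.0486).

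The PPCS calls sat close to the threshold. The call in ascites was lost in 8 of 13 alternatives, among them DESeq2 (adjusted p = 0.148) and leaving out ascites replicate 2 (0.207), ascites replicate 3 (0.0722), combination replicate 2 (0.109) or combination replicate 3 (0.13). The averaged call was lost in 13 of 18, among them leaving out combination replicate 3 (0.0969). Whether ascites changed the drug effect on PPCS was tested by the interaction, 0.17 on the log2 scale with an interval of -0.06 to 0.39 (edgeR adjusted p = 0.999), so a difference between the media was not shown.

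**Figure D1:**
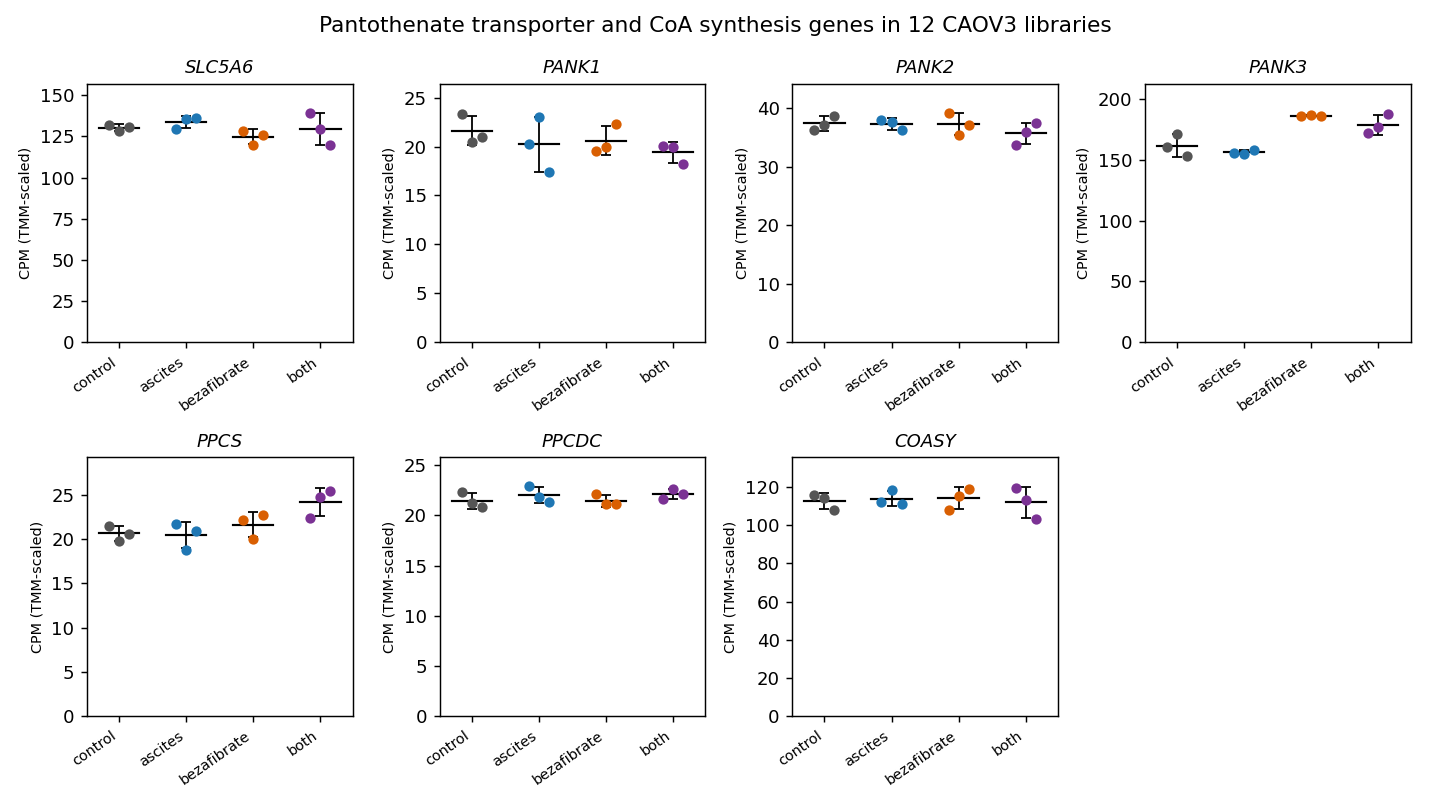
Levels of the 7 tested genes in each of 12 libraries, in TMM-scaled CPM from 0 (vertical axis) by group (horizontal axis, "both" being bezafibrate with ascites). Points are libraries, long bars the group means and whiskers the SD (n = 3). The PANK3 libraries with bezafibrate sit from 171.8 to 187.9, above the 152.7 to 171.2 of those without, while in PANK2, PPCDC and COASY the groups overlap.

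PANK1 and PANK2, the other kinase genes of the family, did not pass the threshold in any contrast. PANK1, the kinase gene prominent in liver, read 23.3, 20.5 and 21 CPM in control and 20.3, 23.0 and 17.4 with ascites. With bezafibrate it read 19.5, 20 and 22.3, and with the combination 20.1, 20 and 18.2, so that the groups with and without the drug overlapped. Averaged over both media its difference with the drug was -0.06 on the log2 scale, and the interval ran from a fall of 12.1% to a rise of 4.51% (edgeR adjusted p = 0.516). A rise in PANK1 of the size seen for PANK3 lies outside that interval.

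PANK2 encodes the mitochondrial kinase, whose loss causes pantothenate kinase-associated neurodegeneration. Its CPM ran from 36.3 to 38.7 in control, 36.2 to 38.0 with ascites, 35.5 to 39.2 with bezafibrate and 33.8 to 37.4 with the combination. The averaged difference with the drug was -0.04 on the log2 scale, with an interval of -8.14% to 3.56% (edgeR adjusted p = 0.592). All 4 groups shared a range of values.

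PPCDC, the decarboxylase that forms phosphopantetheine, spanned only 20.8 to 22.9 CPM over all 12 libraries. Group means were 21.4 ± 0.787 in control, 22 ± 0.805 with ascites, 21.4 ± 0.546 with bezafibrate and 22.1 ± 0.472 with the combination (SD, n = 3). COASY, the bifunctional enzyme of the final steps, ranged from 103.2 to 119.6 CPM, and both of these extremes were combination libraries. For the drug averaged over media, the intervals were -6.64% to 7.66% for PPCDC and -4.78% to 4.61% for COASY. Their absolute changes were among the smallest measured: 2.6% of genes tested had a smaller one than PPCDC, and 2% a smaller one than COASY.

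SLC5A6, the sodium-coupled carrier of pantothenate, biotin and lipoate, read 131.9, 128.1 and 130.8 CPM in control and 129.4, 135.4 and 135.9 with ascites. It read 128.5, 120.0 and 126.1 with bezafibrate and 139.2, 129.2 and 119.6 with the combination, where the spread of the 3 libraries was widest. The averaged difference with the drug was -0.05 on the log2 scale, with an interval of -7.6% to 0.756% (edgeR adjusted p = 0.23). Without combination replicate 1, the library with its highest value, the difference was -0.08 (edgeR adjusted p = 0.0301), and without combination replicate 3, the library with its lowest value, it was -0.03 (edgeR adjusted p = 0.549). Single libraries thus decide the size of this difference and whether SLC5A6 is called.

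**Figure D2:**
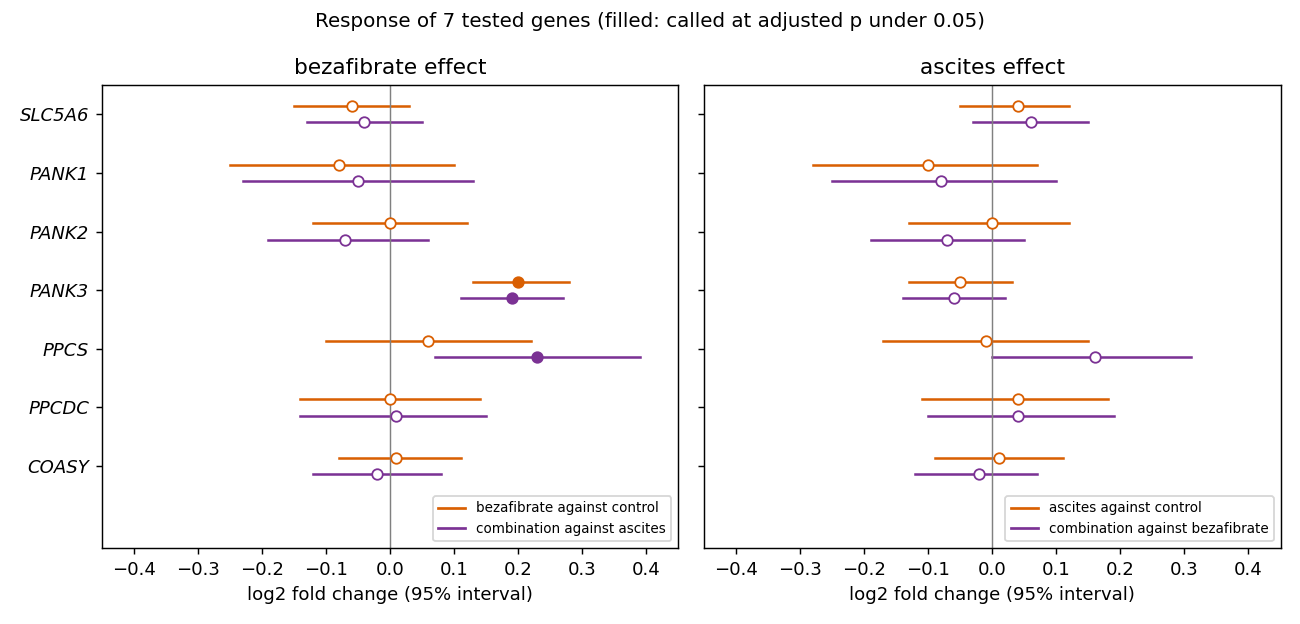
Fitted log2 fold changes (horizontal axis) of the 7 tested genes (vertical axis) for bezafibrate (left) and for ascites (right), each without the other treatment (orange) and with it (purple). Lines are 95% intervals, and filled points were called at an adjusted p under 0.05. The filled points are PANK3 at 0.20 and 0.19 and PPCS at 0.23, all in the left panel.

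Ascites called none of the 7 genes in either medium. Against control it called 0 of 7, where 0.0882% of all genes tested were called (0 higher, 0.0882% lower). On top of bezafibrate it called 0 of 7, beside 0.128% of all genes (0.0401% higher, 0.0882% lower). PPCS was at 0.16 there on the log2 scale, with an interval of 0.253% to 24.2%, and did not hold after correction (edgeR adjusted p = 1). Averaged over drug, 0 of 7 were called, beside 0.281% of all genes (0.0481% higher, 0.233% lower). At an unadjusted p under 0.05, edgeR had 0, 1 (PPCS) and 0 of the 7 genes in these 3 contrasts, and DESeq2 called 0 in each.

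For the averaged ascites effect PANK3 came nearest to the threshold, at -0.06 on the log2 scale with an interval of -7.43% to 0.0054% (edgeR adjusted p = 0.718). The averaged intervals ran from -13.8% to 2.43% for PANK1, -8.14% to 3.56% for PANK2, -2.59% to 13.8% for PPCS, -4.34% to 10.3% for PPCDC, -4.92% to 4.44% for COASY and -1.1% to 7.85% for SLC5A6. The interaction of both treatments called 0 of 7 genes and 0 of all genes tested, with 445 genes at an unadjusted p under 0.05 and 0 called by DESeq2.

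Bezafibrate with ascites against control called 2 of 7 genes, PANK3 and PPCS, both higher, beside 18.2% of all genes (10.3% higher, 7.96% lower). This contrast shares its libraries with those above. PANK3 was 10.5% higher (4.53% to 16.7%, edgeR adjusted p = 0.00708), and the call was lost without control replicate 3, the lowest control library (log2 fold change 0.11, adjusted p = 0.1). Without combination replicate 3 it was also 0.11 (edgeR adjusted p = 0.0384). PPCS was 16.3% higher (4.1% to 30%, edgeR adjusted p = 0.0495), a call lost in 12 of 13 alternatives, among them leaving out combination replicate 3 (0.142).

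The vanins were at the edge of detection, and they are given as raw counts. VNN1 encodes a pantetheinase anchored on the outer cell membrane. It had 3, 2 and 3 counts in the control libraries, 5, 2 and 7 with ascites, 11, 15 and 7 with bezafibrate, and 12, 6 and 8 with the combination. The 6 libraries with the drug held 59 counts and the 6 without held 22, which is 0.653 and 0.266 CPM, a ratio of 2.45 (1.48 to 4.2, an exact interval that covers counting error only). Scaled for depth, the lowest library with the drug (0.481 CPM) was just above the highest without it (0.471 CPM), an ascites library.

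VNN2, a membrane-anchored vanin best known from white blood cells, had 0, 0 and 3 counts in control, 0, 2 and 3 with ascites, 5, 4 and 5 with bezafibrate, and 12, 0 and 6 with the combination. That is 32 counts with the drug and 8 without, a ratio of 3.65 (1.65 to 9.18, counting error only). The libraries overlapped, since combination replicate 2 had no read, and 12 of the 32 counts came from combination replicate 1. Of the 13 blood cell markers, 9 were at 0 in all 12 libraries, among them PTPRC, the pan-leukocyte gene CD45. LYZ had 21 counts in control, 26 with ascites, 39 with bezafibrate and 37 with the combination. In the same order CD14 had 111, 90, 144 and 115, HBA1 had 23, 25, 22 and 24, and HBB had 4, 1, 1 and 9. Of these, 3 entered the test and 0 were called in the averaged drug contrast. The part of blood cell RNA in the vanin counts was not tested. The mesothelium marker UPK3B, like VNN1 and VNN2, had more counts with the drug than without it, and its part in the vanin counts was not tested. VNN3 had 1 count in all, in combination replicate 1, and a count of 0 over the 6 libraries without the drug allows up to 0.0363 CPM.

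**Figure D3:**
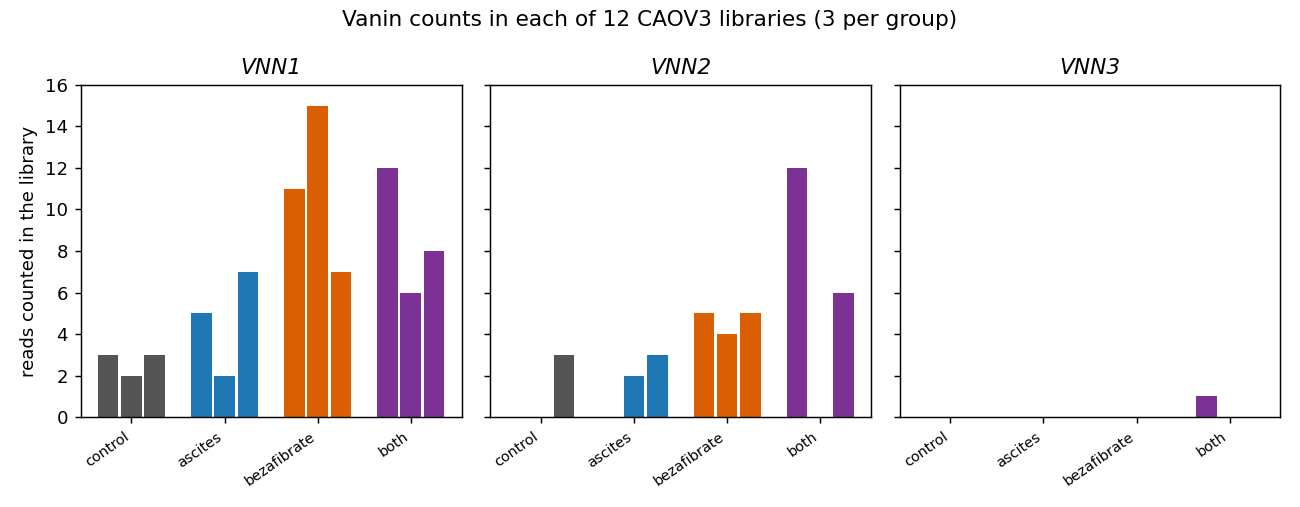
Reads counted for VNN1, VNN2 and VNN3 in each of the 12 libraries (vertical axis, raw counts from 0), 3 bars per group in order of replicate number. VNN1 has 7 to 15 counts in the bezafibrate libraries and 2 to 3 in control, and VNN3 has a single read.

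VNN1 and VNN2 did not pass the low-count filter. Without that filter, edgeR gave a log2 fold change of 1.31 for VNN1 averaged over media (adjusted p = 0.0145) and 1.80 for VNN2 (adjusted p = 0.0215). Within single media VNN1 was at 1.71 for bezafibrate against control (edgeR adjusted p = 0.0496, DESeq2 adjusted p = 0.123, and 0.0897 in edgeR without control replicate 2, where it passed the filter) and 0.91 for the combination against ascites (edgeR adjusted p = 0.377). DESeq2 gave 1.34 for VNN1 in the average (adjusted p = 0.0451) and 1.85 for VNN2 (adjusted p = 0.125). In bulk RNA, many cells with little of a transcript and few cells with more of it cannot be told apart, and this holds for every gene given here.

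Levels of different genes were compared as CPM per kilobase of merged exons, over all 12 libraries (mean ± SD). COASY was highest at 45.7 ± 2.02, followed by SLC5A6 at 38.7 ± 1.76. PANK3, at 16.2 ± 1.32, was the most abundant of the kinases, above PANK2 at 6.63 ± 0.268 and PANK1 at 2.86 ± 0.245. PPCS (10.9 ± 0.974) and PPCDC (9 ± 0.273) lay between PANK3 and PANK2, and their ranges met, with a lowest PPCS library of 9.46 and a highest PPCDC library of 9.46. VNN1 (0.145 ± 0.0743) and VNN2 (0.102 ± 0.101) did not differ beyond their spread, and VNN3 averaged 0.00182. The order was the same with the length of the longest transcript, but there PPCS (15.2) came close to PANK3 (16.2).

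Exon positions come from GENCODE release 29 on GRCh38, which need not be the release behind the counts. PANK3 lies on the minus strand of chromosome 5 (chr5:168548495-168579600) in 7 exons, and its exons contain the processed pseudogene SLC2A3P1 over 1451 bases, 13.8% of their length. PPCS lies on chromosome 1 (chr1:42456117-42473385) and shares 151 exon bases with ZMYND12 on the other strand, a gene with at most 1 count in any library. SLC5A6 lies on chromosome 2 (chr2:27199587-27212958) and shares 260 exon bases with ATRAID on the other strand, whose own drug effect was 0.02 on the log2 scale (edgeR adjusted p = 0.785). PANK1 on chromosome 10 (chr10:89579497-89645572) contains the processed pseudogene AL157400.5 over 621 bases. The strand setting of the counting is not given in the sources used here, so the division of reads with ZMYND12 and ATRAID is uncertain. SLC2A3P1 and AL157400.5 lie on the same strand as PANK3 and PANK1. A strand setting would not separate their reads, and that division is uncertain too. VNN1 (chr6:132681590-132714049), VNN3 (chr6:132722787-132734765) and VNN2 (chr6:132743870-132763459) lie side by side on the minus strand of chromosome 6.

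In the surrounding lists, counts are those of the averaged drug contrast unless ascites is named. That contrast called 28.3% of all genes tested (15% higher, 13.2% lower), and counts of genes called with the drug are to be read beside that share. Of 5 other genes of CoA synthesis and transport (PANK4, DCAKD, SLC25A42, SLC25A16, AASDHPPT), 1 rose and 0 fell in that contrast. That gene was SLC25A42, the carrier that brings CoA into mitochondria, at 7.0, 10.4 and 8.3 CPM in control and 9.3, 7.2 and 6.4 with ascites. It read 19, 18.2 and 19.9 with bezafibrate and 21.4, 18.1 and 20.9 with the combination, so the libraries with and without the drug were far apart. On the log2 scale it rose by 1.28 ± 0.0837 (SE, edgeR adjusted p = 1.84e-14), against 0.20 for PANK3. PANK4, a kinase relative that lacks kinase activity and acts as a phosphatase, was at 0.01 (interval -6.41% to 7.85%).

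In the breakdown of CoA and pantetheine, 4 of 5 genes were tested and 1 was called with the drug, as higher. That is near the 28.3% of all genes called in either direction (15% higher, 13.2% lower). ENPP1, an ectoenzyme that can cleave CoA outside the cell, upstream of the vanins, was 7.74% higher (edgeR adjusted p = 0.0257), a call lost in 8 of 18 alternatives, among them leaving out combination replicate 3. NUDT8, a mitochondrial CoA hydrolase, was at 0.40 on the log2 scale and missed the threshold (edgeR adjusted p = 0.0545). ENPP3 had at most 1 count in any library.

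Among 6 genes that use cysteamine or make and carry taurine, 4 were tested and 1 was called with the drug, as higher. That is again near the 28.3% of all genes called in either direction (15% higher, 13.2% lower). SLC6A6, the taurine transporter, read 128.7, 121.1 and 124.7 CPM in control, 129.8, 120.2 and 124.8 with ascites, 147.6, 149.9 and 153.4 with bezafibrate, and 146.3, 146.6 and 151.3 with the combination. All libraries with the drug lay above all without it, and the averaged rise was 19.3% (14.9% to 24%, edgeR adjusted p = 8.21e-10). ADO and CDO1, the dioxygenases of cysteamine and cysteine, were at -0.03 and -0.01 on the log2 scale and did not pass the threshold. GADL1 and FMO1, the latter known to oxidise hypotaurine, were at 0 in all 12 libraries.

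Of 5 proteins that carry a phosphopantetheine arm made from CoA, 4 were tested. With the drug 0 of the 4 were called by edgeR in the average (ALDH1L2, NDUFAB1, FASN and AASDH). Averaged over drug, ascites called 1 of the 4, as lower, beside 0.281% of all genes (0.0481% higher, 0.233% lower). That gene was FASN, fatty acid synthase, at 599.1, 576.7 and 572.3 CPM in control and 549.4, 540.8 and 553.1 with ascites. It read 561.7, 577.2 and 612.6 with bezafibrate and 491.2, 553.3 and 489.8 with the combination. The averaged ascites effect on FASN was -0.14 on the log2 scale (edgeR adjusted p = 0.0135), and the call was lost in 4 of 18 alternatives: at an adjusted p under 0.01, and without ascites replicate 1, ascites replicate 2 or combination replicate 3 (highest adjusted p 0.061). FASN was also called lower for the combination against control, beside 7.96% of all genes, and kept that call in 13 of 13 alternatives. For the combination against bezafibrate it was called lower, beside 0.0882% of all genes, a call lost in 8 of 13.

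SLC5A6 also brings in biotin, and of 9 genes that attach, recycle or use biotin, 3 rose and 1 fell with the drug, beside 15% of all genes higher and 13.2% lower. Of the 3 rises, only that of PC kept its call in all 18 alternatives. PC, pyruvate carboxylase, went from 34.4, 32.0 and 31.4 CPM in control and 36.2, 34.4 and 34.5 with ascites to 55.0, 53.4 and 50.4 with bezafibrate and 57.3, 51.3 and 50.7 with the combination. Its log2 fold change was 0.65 (edgeR adjusted p = 1.47e-15). ACACB, the acetyl-CoA carboxylase at mitochondria, was at 0.25 (edgeR adjusted p = 0.0209), a call lost in 7 of 18 alternatives. PCCA, a subunit of propionyl-CoA carboxylase, was at 0.17 (edgeR adjusted p = 0.0366), a call lost in 10 of 18, among them leaving out combination replicate 3.

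MCCC1, a subunit of the leucine-pathway carboxylase, fell by 0.26 on the log2 scale with the drug (edgeR adjusted p = 1.71e-05). Its means were 59.0 ± 4.17 CPM in control and 57.0 ± 4.13 with ascites, against 48.6 ± 1.79 with bezafibrate and 48.4 ± 4.6 with the combination (SD, n = 3). HLCS, the ligase that attaches biotin, and BTD, which recycles it, were not called. Averaged over drug, ascites called 1 of the 9, as lower, beside 0.281% of all genes (0.0481% higher, 0.233% lower). That gene was ACACA, the cytosolic acetyl-CoA carboxylase, at -0.15 on the log2 scale (edgeR adjusted p = 0.00236). All 6 ascites libraries lay between 143.0 and 158.7 CPM and the 6 without between 162.2 and 171.7.

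**Figure D4:**
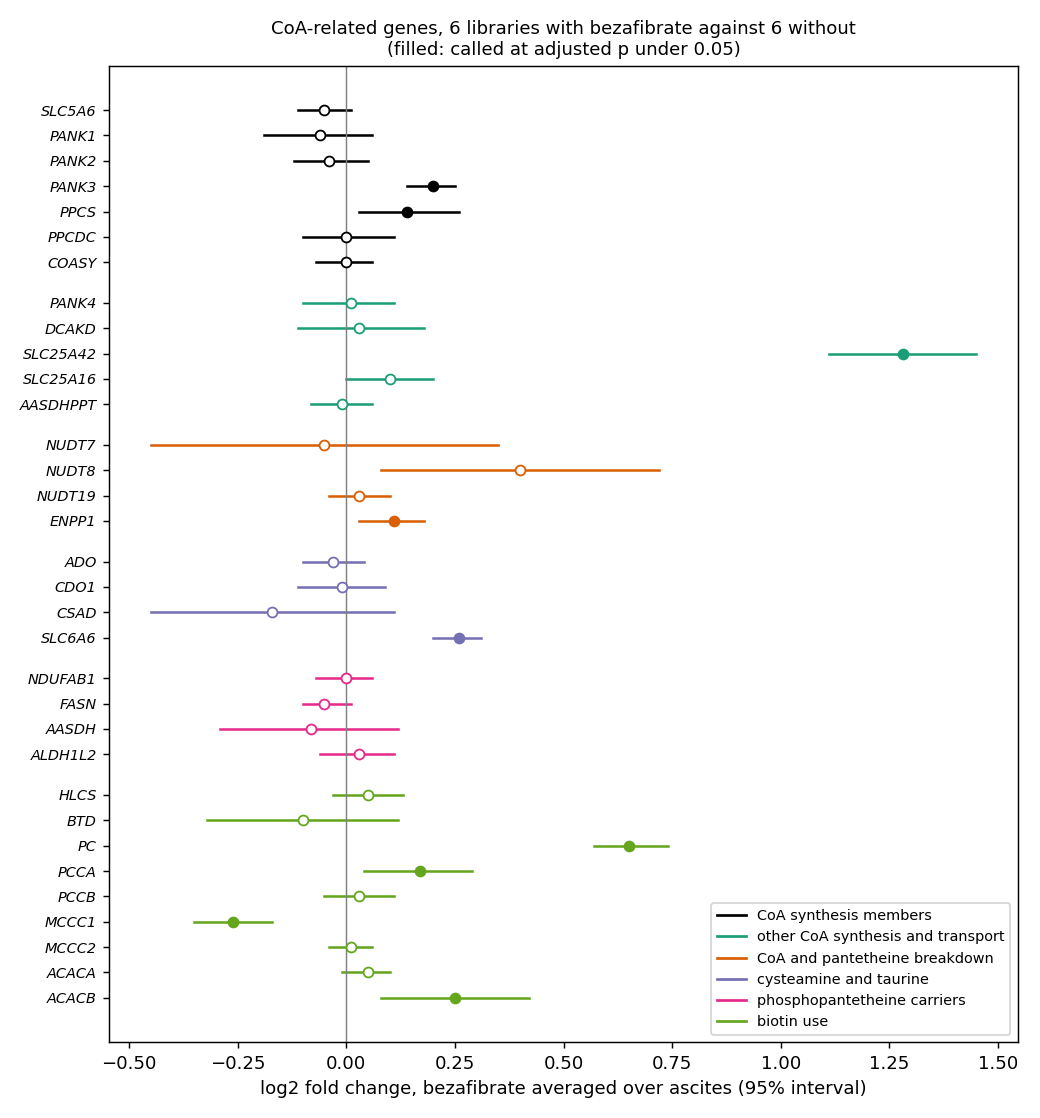
Fitted log2 fold changes with bezafibrate, averaged over both media (horizontal axis), for the 7 tested genes of CoA synthesis and pantothenate uptake (black) and for the surrounding lists (colours). Lines are 95% intervals, and filled points were called at an adjusted p under 0.05. SLC25A42 at 1.28 and PC at 0.65 lie far to the right of PANK3 at 0.20, and MCCC1 at -0.26 is the filled point left of 0.

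The genes whose log2 CPM followed PANK3 most closely over the 12 libraries were ACSL3 (Pearson r = 0.965), GRHL3 (0.963), MFSD9 (0.958), HTATSF1 (0.958) and B3GNT5 (0.956), out of 11925 genes that averaged 1 CPM or more. The 12 libraries share the drug contrast, so these values mainly order genes that differ between its arms. The averaged drug effects of these 5 genes on the log2 scale were 0.41, 0.93, 0.27, 0.26 and 0.56.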

How the data were processed

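The authors deposited whole-number counts per gene, 1 table per library. Per the submitters' processing notes, Trimmomatic 0.39, STAR 2.7.9a, RSEM 1.3.3, DESeq2 1.28.1 and build GRCh38 were used, with no role stated. The annotation release, the strand setting and the tool that wrote the counts are not given in the sources used here. Groups and replicate numbers came from the labels.

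Genes were kept by filterByExpr (minimum count 10, minimum total count 15), which left 12470 of 19677, and were scaled by TMM. edgeR 4.0.16 (R 4.3.3, limma 3.58.1) fitted 1 mean per group over all 12 libraries with a robust quasi-likelihood test, and 8 contrasts were adjusted by Benjamini-Hochberg (threshold 0.05). The script was checked on simulated counts. The common biological coefficient of variation was 3.06%, and chi-square per degree of freedom between replicates ran from 1.44 to 4.45, so no library was a copy of another.

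All 10 genes are described. From each list, up to 4 called genes with the largest change are named. The genes and lists were chosen with earlier results of these data known. Alternatives were RLE and upper-quartile scaling, no filter, DESeq2 1.42.0, a threshold of 0.01, fits of only the 2 groups, the replicate number as a block and each library left out. Likeness used log2 CPM with a prior count of 2.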

Additional observations from a re-analysis of the deposited data

How the results depend on the processing

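PANK3 kept its call in 13 of 13 alternatives for bezafibrate against control, 13 of 13 for the combination against ascites and 18 of 18 for the average, with log2 fold changes of 0.17 to 0.25, 0.16 to 0.22 and 0.18 to 0.22. Over 832 alternatives for the tested genes, 0 called values reversed, 34 lost a call (1 of PANK3, the others of PPCS) and 1 gained one (SLC5A6). The causes were not tested.

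Of the 7 genes, the number called for the combination against control was 1 with RLE or upper-quartile scaling, no filter, DESeq2, a threshold of 0.01, only the 2 groups, or the replicate block. It was 1 for the combination against ascites with upper-quartile scaling, DESeq2, the threshold of 0.01 or only the 2 groups, and 1 for the averaged drug effect with RLE, upper-quartile scaling or the threshold of 0.01. Without the filter or with DESeq2 it was also 1 for the averaged drug effect. Of all 10 genes it was then 3 (with VNN1 and VNN2) and 2 (with VNN1), beside 3699 and 2710 of all genes. The main fit called 3525. Without the filter, bezafibrate against control called 2 of the 10, PANK3 and VNN1, beside 2334 of all genes. Of all 10 genes, leaving out 1 library at a time gave 1 to 2 calls for bezafibrate against control, 1 to 2 for the combination against ascites, 0 to 2 for the combination against control, 1 to 3 for the averaged drug effect, and 0 to 0 for the other contrasts. These ranges include calls of VNN1, which passed the low-count filter in some of these fits but not in the main fit. It was called without combination replicate 2 for the combination against control (edgeR adjusted p = 0.0369). Without combination replicate 3 it was called for the averaged drug effect (edgeR adjusted p = 0.00965). Its counts were higher with the drug, so passing the filter is tied to that group and its calls there are not added support.

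Over all genes, no filter gave 59 calls for ascites against control, 52 for the combination against bezafibrate, 36 for the interaction and 113 for the averaged ascites effect. The threshold of 0.01 gave 1475 for the combination against ascites and 2456 for the averaged drug effect. For ascites it gave 4 and 6 without and with the drug and 19 in the average. Fits of only the 2 groups gave 33 and 7 for ascites without and with the drug. Leaving out 1 library gave 3 to 5 and 9 to 28 for these, 0 to 3 for the interaction, 21 (without ascites replicate 1) to 118 (without combination replicate 3) for the averaged ascites effect, 1761 to 1888 for bezafibrate against control, 1742 to 2188 for the combination against ascites, 1791 to 2385 for the combination against control and 3133 to 3620 for the averaged drug effect. Upper-quartile scaling moved the share of calls that were higher from 57.2% to 49.0% for bezafibrate against control, 58.9% to 49.3% for the combination against ascites, 56.3% to 47.3% for the combination against control and 53.2% to 43.3% for the averaged drug effect, so that lower calls became the majority.

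Same-numbered libraries of different groups showed no sign of pairing once group means were removed. Of 18 such pairs, 0 had a correlation over 0.1 (-0.135 to 0.0613), beside -0.0709 to 0.179 for pairs with other numbers. The labels do not say whether a replicate number marks a shared day or culture, so the block is given only as an alternative. With the replicate block, the number of the 7 genes called was 1, 2, 0, 0, 1, 0, 2 and 0 over the 8 contrasts, and over all genes tested the interaction had 1 call.

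With 0 to 15 counts per library (2 to 15 for VNN1, 0 to 12 for VNN2), counting error limits what can be said of the vanins.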
